A study of Homo sapiens with 9 samples.

Results

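Glycolysis was followed here through 10 genes: HK2, GPI, PFKP, ALDOA, TPI1, GAPDH, PGK1, ENO1, PKM and LDHA. All probes that the platform annotation gives to these symbols (PKM is also written PKM2) in the authors' table of values were taken. The 10 genes were chosen with earlier results of these data known. That table holds only part of the 47323 probes deposited, and a probe absent from it could not enter. This gave 20 probes, among 20127 in that table: GPI, PFKP and ENO1 had 1 probe each, HK2, ALDOA, TPI1 and PGK1 had 2, and GAPDH, PKM and LDHA had 3. All 20 passed the filter on dim probes that left 21683 probes on the arrays, and the 10 genes stand among 11991 that could be named. Each gene is represented by its brightest probe, the one with the highest mean over the 9 arrays, and all 10 of these probes were detected on 9 of 9 arrays.

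The study turned human embryonic stem cells (hESC) of the line H9 into perivascular progenitors, cells related to the pericytes that wrap capillaries, and measured total RNA on Illumina BeadChips, where each transcript hybridises to a bead-bound oligonucleotide. There are 3 groups of 3 arrays, all of this single line. The hESC were undifferentiated, on mouse embryonic fibroblast feeders with bFGF at 4 ng/ml. The embryoid bodies were floating aggregates of the same cells, taken off the feeders and kept with BMP4 at 40 nM until day 6. The progenitors came from embryoid bodies of day 6 (so they had the same BMP4 exposure) that were dissociated, and the cells that stuck to collagen in the endothelial growth medium EGM2-MV were passaged. The labels do not say whether the arrays of a group are separate cultures, so p-values measure only the spread between these arrays, which may be technical. Medium, feeders, aggregation and time differ together between groups and cannot be told apart.

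Glycolysis splits glucose into pyruvate in the cytosol and yields ATP and NADH without oxygen. HK2 traps glucose as glucose 6-phosphate, GPI and PFKP prepare it for splitting, ALDOA and TPI1 make triose phosphates, and GAPDH, PGK1, ENO1 and PKM carry the energy-yielding part of the route. LDHA turns pyruvate into lactate and so returns NAD+. Pluripotent stem cells are known for a high glycolytic flux, and many of these genes are known targets of hypoxia-inducible factors and of MYC.

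Levels below are normalized log2 intensities, which do not compare 1 probe with another, and a difference of 1 is 2-fold. Differences were tested with limma's moderated statistic in 1 fit of all 9 arrays, with Benjamini-Hochberg adjustment over the 21683 probes. A gene is said to have risen or fallen only with an adjusted p under 0.05 and a change of at least 2-fold. Smaller differences with an adjusted p under 0.05 are called higher or lower.

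Between 17964 and 21172 probes were detected per array. The pluripotency markers measured (7 of 8 listed) fell in the progenitors, 7 of 7 against hESC, and POU5F1, SOX2, NANOG and L1TD1 were not above background on any progenitor array. For the 7 markers the log2 of the summed linear levels was 16.1 to 16.4 in hESC, 16.2 in embryoid bodies and 9.64 to 9.72 in progenitors. Of 6 pericyte markers measured, 4 rose in the progenitors against hESC, and all 5 fibroblast markers rose. In that comparison 14.7% of all genes rose and 19% fell. In the embryoid bodies 0 of the 7 pluripotency markers rose or fell against hESC, with log2 differences of −0.44 to 2.06, and 1 was higher and 1 lower. In the same comparison 3 of 5 fibroblast markers rose and 2 of 6 pericyte markers fell (1.5% and 1.58% of all genes). Progenitor 2 stood apart from progenitors 1 and 3 on the glycolytic probes: it was the lowest of the 3 progenitor arrays for 20 of 20, against 42.1% of all probes and 52.2% of the 1467 with a mean level of at least 12. It lay below the mean of the other two by a median of 0.47 on the log2 scale (range of the difference −0.87 to −0.12). The array hESC 3, which stood apart from hESC 1 and 2 in other genes, differed from them by −0.24 to 0.38 on these probes.

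None of the 10 glycolytic genes rose or fell in any of the 3 comparisons by limma, whereas 3.08% of the 11991 genes did so in embryoid bodies against hESC, 33.7% in progenitors against hESC and 34.2% when progenitors were set against embryoid bodies. At an unadjusted p under 0.05 and any fold, 4, 5 and 5 of the 10 differed, as did 34.8%, 70.6% and 71.2% of all genes. The 95% interval of the difference lay within 2-fold in both directions for 9, 9 and 8 of the 10 genes, and for 85.6%, 50.3% and 49.4% of all genes. By limma's F-test over the groups, 4 of the 10 (HK2, ALDOA, GAPDH and LDHA) and 12 of the 20 probes differed, against 73.9% of all genes. Without progenitor 2 the F-test called 8 of the 10. The shares of all genes were not matched for brightness. ENO1, LDHA and GAPDH reached bead intensities of 43256, 32506 and 31622, where the highest on an array was 57998 to 64780. Whether differences are narrowed on signals this bright was not tested.

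**Figure D1:**
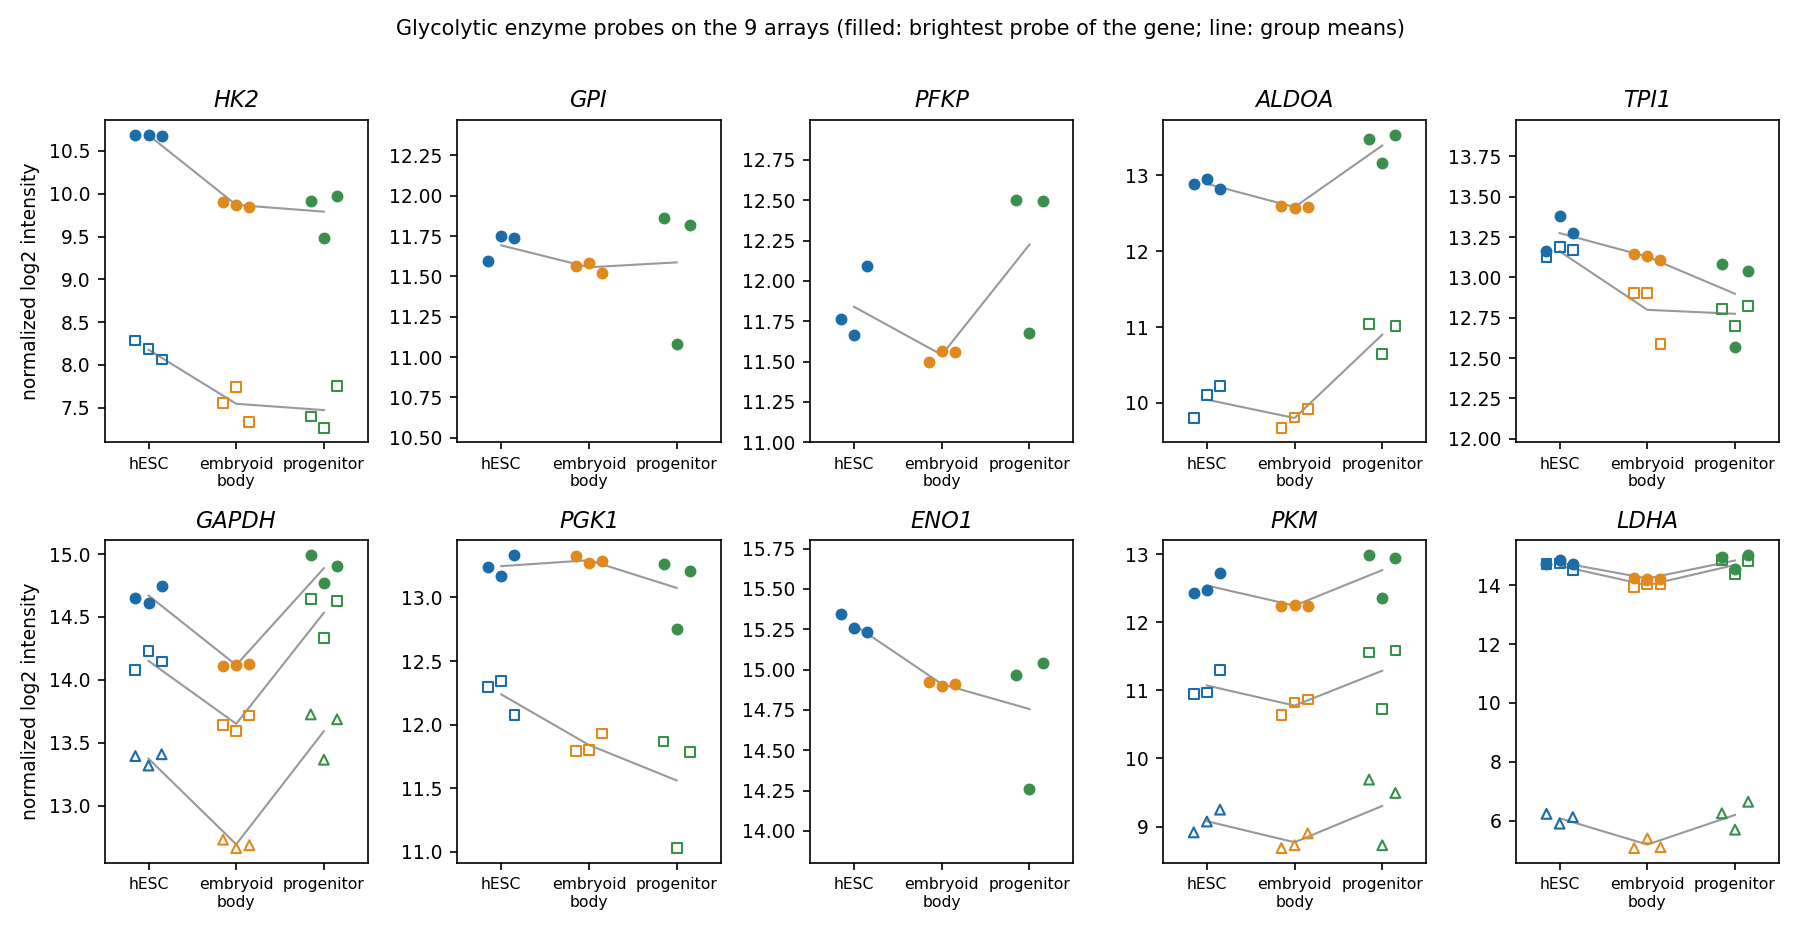
Normalized log2 intensity of each glycolytic probe on the 9 arrays, 1 panel per gene, each with its own vertical scale. Points are arrays, filled for the brightest probe and open for further probes, and lines join the group means. HK2 is high in hESC alone, GAPDH and LDHA dip in the embryoid bodies, and progenitor 2, the middle progenitor point, is the lowest of its group for all 20 probes.

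The first comparison asks what differed after 6 days of aggregation with BMP4. In the embryoid bodies HK2, GAPDH and LDHA were lower and the other 7 genes did not pass: 3 of 10 were lower with an adjusted p under 0.05 at any fold (9.72% of all genes) and 0 were higher (9.63%), where 19.4% of all genes differed in either direction. Their median log2 difference was −0.30, against −0.01 for all genes. The sign was below 0 for 9 of 10 genes and 19 of 20 probes, and the groups did not overlap for 9 of 10, against 48.8% of all genes.

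HK2, the hexokinase that commits glucose to the pathway, read 10.69, 10.69 and 10.68 in hESC and 9.90, 9.86 and 9.84 in the embryoid bodies. The groups lay well apart, with arrays within each nearly equal. The log2 difference was −0.82 (SE 0.13, 95% interval −1.11 to −0.52, adjusted p = 0.00404, limma), a 1.76-fold lower level. GAPDH, the dehydrogenase that makes NADH in the pathway and a common reference gene, read 14.65, 14.61 and 14.75 in hESC and 14.11, 14.12 and 14.13 in embryoid bodies. Every embryoid body array lay below every hESC array, and the log2 difference was −0.55 (SE 0.096, adjusted p = 0.00568, limma). LDHA read 14.73, 14.85 and 14.73 in hESC and 14.24, 14.22 and 14.22 in embryoid bodies, again with no overlap. Its log2 difference was −0.55 (SE 0.13, adjusted p = 0.0232, limma).

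These 3 differences did not hold equally well when arrays were left out. HK2 and GAPDH kept an adjusted p under 0.05 in 9 of 9 such fits, with highest values of 0.0209 and 0.0283. LDHA missed it without hESC 1 (0.0604), hESC 2 (0.0784) and embryoid bodies 1 (0.0722), 2 (0.0746) or 3 (0.0717). The second LDHA probe read 14.73, 14.74 and 14.51 in hESC and 13.93, 14.02 and 14.04 in embryoid bodies. With all 9 arrays its log2 difference was −0.66 (adjusted p = 0.0134, limma). Without progenitor 2, which enters this comparison only through the shared estimate of the spread, ALDOA (0.0169), ENO1 (0.00864) and PKM (0.0479) were lower as well, 6 of the 10 in all.

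The remaining 7 genes did not pass. ALDOA, the aldolase, gave a log2 difference of −0.31 (adjusted p = 0.0964), ENO1, the enolase, −0.37 (0.211), PFKP, the platelet-type phosphofructokinase, −0.30 (0.391) and PKM, the pyruvate kinase, −0.29 (0.267). TPI1, which interconverts the triose phosphates, gave −0.15 (0.531) and GPI, the isomerase of the second step, −0.14 (0.678), all by limma. PGK1, the phosphoglycerate kinase, read 13.24, 13.17 and 13.34 in hESC and 13.32, 13.27 and 13.28 in embryoid bodies. It was the 1 gene whose groups overlapped, at a log2 difference of 0.05.

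When arrays were scaled by their median in place of quantiles, the median of all genes itself moved by −0.28 in this comparison. HK2 then differed by −1.13 and passed 2-fold, which is −0.85 relative to that median. PGK1 turned to −0.19, so that all 10 genes lay below 0, and 9 of 10 lay below the median of all genes.

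**Figure D2:**
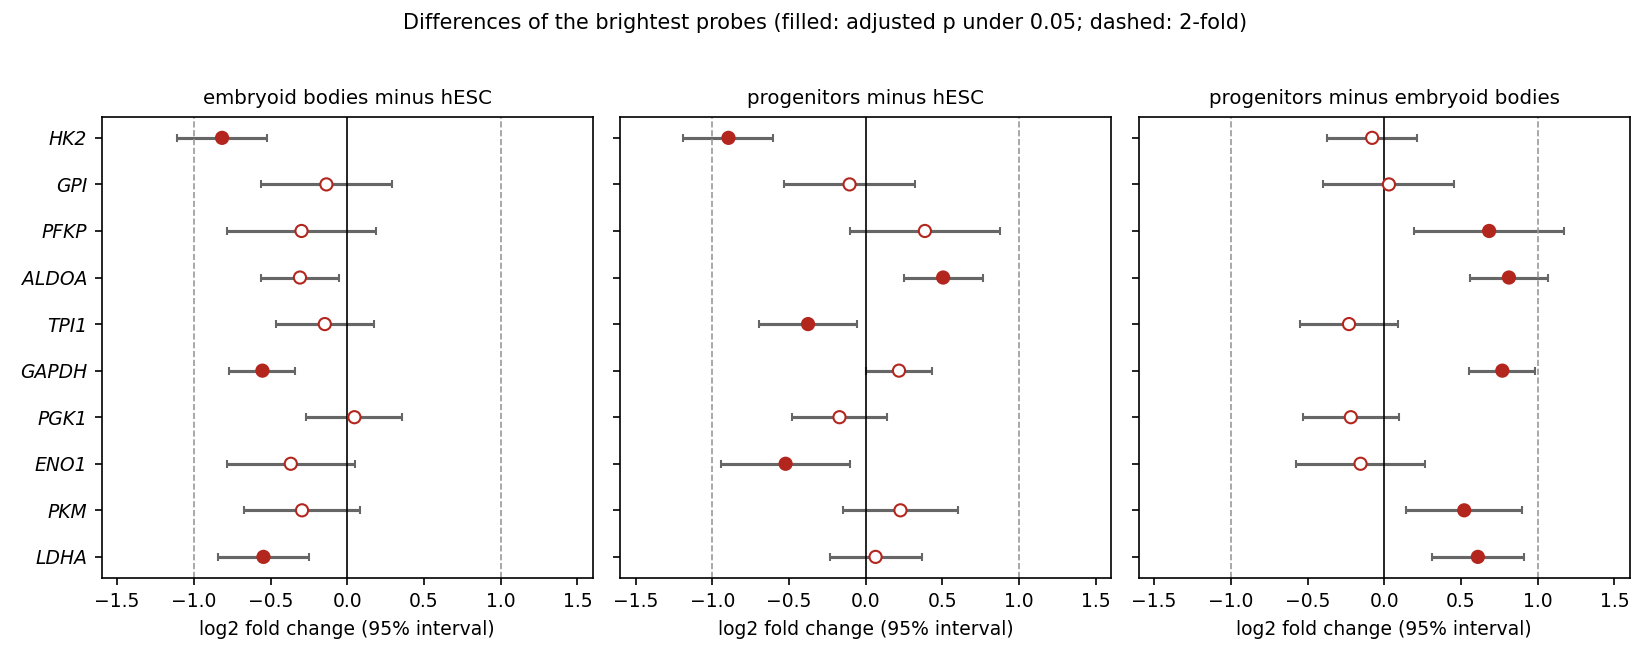
Log2 fold changes of the 10 glycolytic genes (brightest probe) in the 3 comparisons, with 95% intervals from the fit, n = 3 arrays a group. Filled points have an adjusted p under 0.05 (limma), and dashed lines mark 2-fold. No point lies beyond 2-fold, and the filled points lie below 0 on the left and above 0 on the right.

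The start-site windows of the 3 genes that were lower in embryoid bodies, with that of PGK1, which was not, are shown because hypoxia-inducible factors are known to bind ACGTG and GCGTG in genes of this pathway and MYC family proteins the palindrome CACGTG. Each runs 5′ to 3′ on the gene's strand from 250 bases before to 50 after a RefSeq start site (GRCh38.p14), and capitals mark ACGTG or GCGTG on either strand (CACGT and CACGC on the strand shown). HK2 and LDHA have 2 start-site windows each, and the first is shown.
HK2, chr2:74833877-74834176, plus strand: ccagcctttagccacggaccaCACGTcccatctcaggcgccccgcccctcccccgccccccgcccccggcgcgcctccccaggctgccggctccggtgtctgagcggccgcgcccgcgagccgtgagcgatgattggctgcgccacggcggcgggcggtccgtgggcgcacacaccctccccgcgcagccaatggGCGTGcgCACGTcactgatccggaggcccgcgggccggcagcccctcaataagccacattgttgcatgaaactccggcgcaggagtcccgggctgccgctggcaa
GAPDH, chr12:6535014-6535313, plus strand: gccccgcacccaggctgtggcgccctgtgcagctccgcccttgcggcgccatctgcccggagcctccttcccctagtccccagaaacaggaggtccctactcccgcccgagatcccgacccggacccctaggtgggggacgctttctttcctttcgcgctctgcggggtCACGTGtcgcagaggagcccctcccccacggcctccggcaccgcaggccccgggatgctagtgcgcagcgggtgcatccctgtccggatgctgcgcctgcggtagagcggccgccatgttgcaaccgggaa
LDHA, chr11:18394313-18394612, plus strand: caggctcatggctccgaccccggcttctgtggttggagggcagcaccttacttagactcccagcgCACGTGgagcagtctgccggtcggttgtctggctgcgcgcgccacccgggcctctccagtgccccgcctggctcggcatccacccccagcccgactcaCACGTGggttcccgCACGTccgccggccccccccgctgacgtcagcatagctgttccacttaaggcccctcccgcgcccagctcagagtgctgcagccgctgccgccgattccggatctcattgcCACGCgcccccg
PGK1, chrX:78103998-78104297, plus strand: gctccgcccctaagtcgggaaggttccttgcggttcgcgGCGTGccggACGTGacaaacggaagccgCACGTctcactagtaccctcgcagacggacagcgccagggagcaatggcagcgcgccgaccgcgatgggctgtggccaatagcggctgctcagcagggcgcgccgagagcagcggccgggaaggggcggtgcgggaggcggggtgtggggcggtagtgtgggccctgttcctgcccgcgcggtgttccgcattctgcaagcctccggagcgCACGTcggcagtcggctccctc
The windows hold 3, 2, 6 and 4 such matches in this order, where CACGTG counts once for each strand. GAPDH holds CACGTG 1 time and LDHA 2 times, while PGK1 and the first HK2 window hold none. The second HK2 window, not shown, holds 6 matches and CACGTG 2 times.

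All 10 genes were found in the RefSeq table, with 18 windows in total. All 10 have ACGTG or GCGTG in at least 1 window, and 15 of the 18 windows do. The share was 52.4% of all 27305 genes listed by RefSeq there and 48.4% of all 35116 windows. CACGTG was present in 4 of the 10 genes and in 8.8% of all genes. A gene with several windows has more chances of a match, and a match is a string of letters, not a site of binding. PGK1 held matches as the other genes did. Its brightest probe did not pass the test in any comparison, while its second probe was lower in progenitors than in hESC. Whether the matches bear on the levels was not tested.

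The second comparison sets the passaged progenitors against the hESC they were derived from. Here the glycolytic genes split: 3 of 10 were lower at any fold (36.8% of all genes) and 1 was higher (30.3%). Together 4 of 10 differed, below the 67.1% of all genes. The median log2 difference was −0.02, against −0.07 for all genes, and signs were 5 below and 5 above 0. The groups did not overlap for 5 of 10, against 71.4% of all genes.

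HK2 was the member furthest from its hESC level. It read 9.92, 9.49 and 9.97 in the progenitors, all below the hESC arrays, and its log2 difference was −0.89 (SE 0.13, 95% interval −1.19 to −0.60, adjusted p = 0.00024, limma), 1.86-fold lower. This passed in 9 of 9 fits that left out an array, and with median scaling it was −1.05, past 2-fold (−0.81 relative to the median of all genes, which moved by −0.24). ALDOA read 12.89, 12.96 and 12.82 in hESC and 13.48, 13.17 and 13.54 in progenitors, without overlap. It was higher by a log2 difference of 0.50 (SE 0.11, adjusted p = 0.00367, limma), in 9 of 9 such fits.

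ENO1 and TPI1 were lower by less, and on their brightest probes by values that turned on progenitor 2. ENO1 read 15.35, 15.26 and 15.23 in hESC and 14.97, 14.26 and 15.04 in progenitors, a log2 difference of −0.52 (SE 0.19, adjusted p = 0.0341, limma). The progenitor arrays lay below all hESC arrays, and the difference was −0.27 (0.0174) without progenitor 2. It missed the threshold without hESC 1 (0.0918), hESC 2 (0.0713) or hESC 3 (0.0586). TPI1 read 13.16, 13.38 and 13.28 in hESC and 13.08, 12.57 and 13.04 in progenitors, a log2 difference of −0.38 (SE 0.14, adjusted p = 0.0439, limma). It kept the threshold only without progenitor 1 (0.028) or progenitor 3 (0.0403). Without any 1 of the other arrays its adjusted p was 0.0523 to 0.132, and without progenitor 2 the difference was −0.21 (0.0712). With the replicate number as a block the adjusted p of TPI1 was 0.0715, and 2 of the 10 genes were lower. The second TPI1 probe read 13.13, 13.19 and 13.17 in hESC and 12.80, 12.70 and 12.82 in progenitors, without overlap. Its log2 difference was −0.39 (adjusted p = 0.0129, limma). On this probe progenitor 2 differed from the mean of progenitors 1 and 3 by −0.12, against −0.49 on the brightest TPI1 probe.

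GAPDH read 14.99, 14.77 and 14.90 in progenitors, all above the hESC arrays, yet its log2 difference of 0.22 did not pass (adjusted p = 0.0764, limma). The second GAPDH probe was higher by 0.38 (adjusted p = 0.0139, limma), while the third, at 0.22 (0.123), did not pass. PFKP read 11.76, 11.66 and 12.09 in hESC and 12.50, 11.68 and 12.50 in progenitors, where 2 arrays were high and progenitor 2 lay among the hESC values. Its log2 difference was 0.39 (adjusted p = 0.153). PKM gave 0.23 (0.272), LDHA 0.06 (0.701), GPI −0.11 (0.655) and PGK1 −0.17 (0.314). Without progenitor 2, PFKP (0.66, adjusted p = 0.0023), PKM (0.43, 0.00692), GAPDH (0.28, 0.0182) and LDHA (0.22, 0.0463) were higher, which with ALDOA made 5 of 10, and GPI turned to 0.15 (0.163).

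The third comparison sets the progenitors against the embryoid bodies they came from. Of the 10 genes 5 were higher at any fold (30.6% of all genes) and 0 were lower (37%), where 67.6% of all genes differed in either direction. The median log2 difference was 0.28, against −0.08 for all genes, and the groups did not overlap for 7 of 10, against 74.8% of all genes. The embryoid body arrays are shared with the first comparison and the progenitor arrays with the second, so these values are not independent of those above.

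ALDOA and GAPDH differed most. ALDOA read 12.59, 12.57 and 12.58 in embryoid bodies, below all progenitor arrays, and was higher in progenitors by 0.81 (SE 0.11, adjusted p = 0.000185, limma), 1.76-fold. With median scaling this was 1.03 and passed 2-fold. GAPDH was higher by 0.77 (SE 0.096, adjusted p = 8.13e-05, limma), 1.70-fold. LDHA read 14.95, 14.53 and 15.03 in progenitors and was higher by 0.61 (SE 0.13, adjusted p = 0.00291, limma). These 3 passed in 9 of 9 fits that left out an array.

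PFKP and PKM were higher with less support. PFKP read 11.49, 11.57 and 11.56 in embryoid bodies, below all progenitor arrays, a log2 difference of 0.68 (SE 0.22, adjusted p = 0.0207, limma). It missed the threshold without embryoid body 1 (0.0577), progenitor 1 (0.0748) or progenitor 3 (0.0758), and was 0.96 (0.000278) without progenitor 2. PKM read 12.24, 12.26 and 12.24 in embryoid bodies and 12.99, 12.36 and 12.95 in progenitors, with no overlap and a log2 difference of 0.52 (SE 0.17, adjusted p = 0.0223, limma). It missed without embryoid body 1 (0.0558), 2 (0.0536) or 3 (0.0564) and without progenitor 1 (0.081) or 3 (0.0792), and was 0.72 (0.0004) without progenitor 2.

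The other 5 did not pass. HK2 lay close to its embryoid body level (log2 difference −0.08, adjusted p = 0.629, 95% interval −0.37 to 0.21), as did GPI (0.03, 0.903), ENO1 (−0.15, 0.503), PGK1 (−0.22, 0.205) and TPI1 (−0.23, 0.193), all by limma. GPI read 11.56, 11.59 and 11.52 in embryoid bodies and 11.86, 11.08 and 11.82 in progenitors, which lay on both sides. Without progenitor 2 GPI was higher by 0.28 (adjusted p = 0.0187). The signs of HK2 (0.07) and ENO1 (0.09) turned without that array.

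The order of the group means differed between genes. ALDOA, GAPDH, PFKP, PKM and LDHA were lowest in embryoid bodies and highest in progenitors. HK2, TPI1 and ENO1 were highest in hESC and lowest in progenitors. The test did not separate embryoid bodies from progenitors for HK2, TPI1 and ENO1, though the arrays of TPI1 did not overlap. On the brightest probes it did not separate hESC from progenitors for LDHA, PKM, PFKP and GAPDH. The arrays of GAPDH did not overlap, its second probe passed, and all 4 genes passed without progenitor 2. For GPI and the brightest PGK1 probe no pair of groups passed the test.

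For 7 genes several probes could be compared, on the log2 differences. The probes of PKM, whose annotated transcripts differ (ILMN_2366634, ILMN_1775327 and ILMN_1672650), gave close values: −0.31 to −0.29 for embryoid bodies against hESC, 0.22 to 0.23 for progenitors against hESC and 0.51 to 0.53 for progenitors against embryoid bodies. Where these probes lie relative to the alternative exons of PKM was not analysed here. Both HK2 probes were lower in embryoid bodies (−0.82 and −0.63) and in progenitors (−0.89 and −0.71) than in hESC, each with an adjusted p under 0.05. The 3 GAPDH probes were lower in embryoid bodies by −0.68 to −0.50, all with an adjusted p under 0.05.

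PGK1 was the gene whose probes disagreed. The second probe read 12.29, 12.34 and 12.08 in hESC, 11.79, 11.80 and 11.93 in embryoid bodies and 11.87, 11.03 and 11.79 in progenitors. It was below the hESC arrays throughout, at −0.40 (adjusted p = 0.217) and −0.68 (0.0163), where the first probe gave 0.05 and −0.17. The second ALDOA probe rose in progenitors against embryoid bodies by 1.10 (adjusted p = 0.000158, limma), 2.14-fold, from 9.67, 9.81 and 9.92 to 11.04, 10.64 and 11.01.

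The third LDHA probe was near background, detected on 2 hESC arrays, 0 embryoid body arrays and 2 progenitor arrays. It rose in progenitors against embryoid bodies by the same test (adjusted p = 0.00299), but since the embryoid body value is only a bound, progenitors were at least 1.15-fold higher. These were 2 of 20 probes that rose in this comparison, against 14.7% of all probes that rose.

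**Figure D3:**
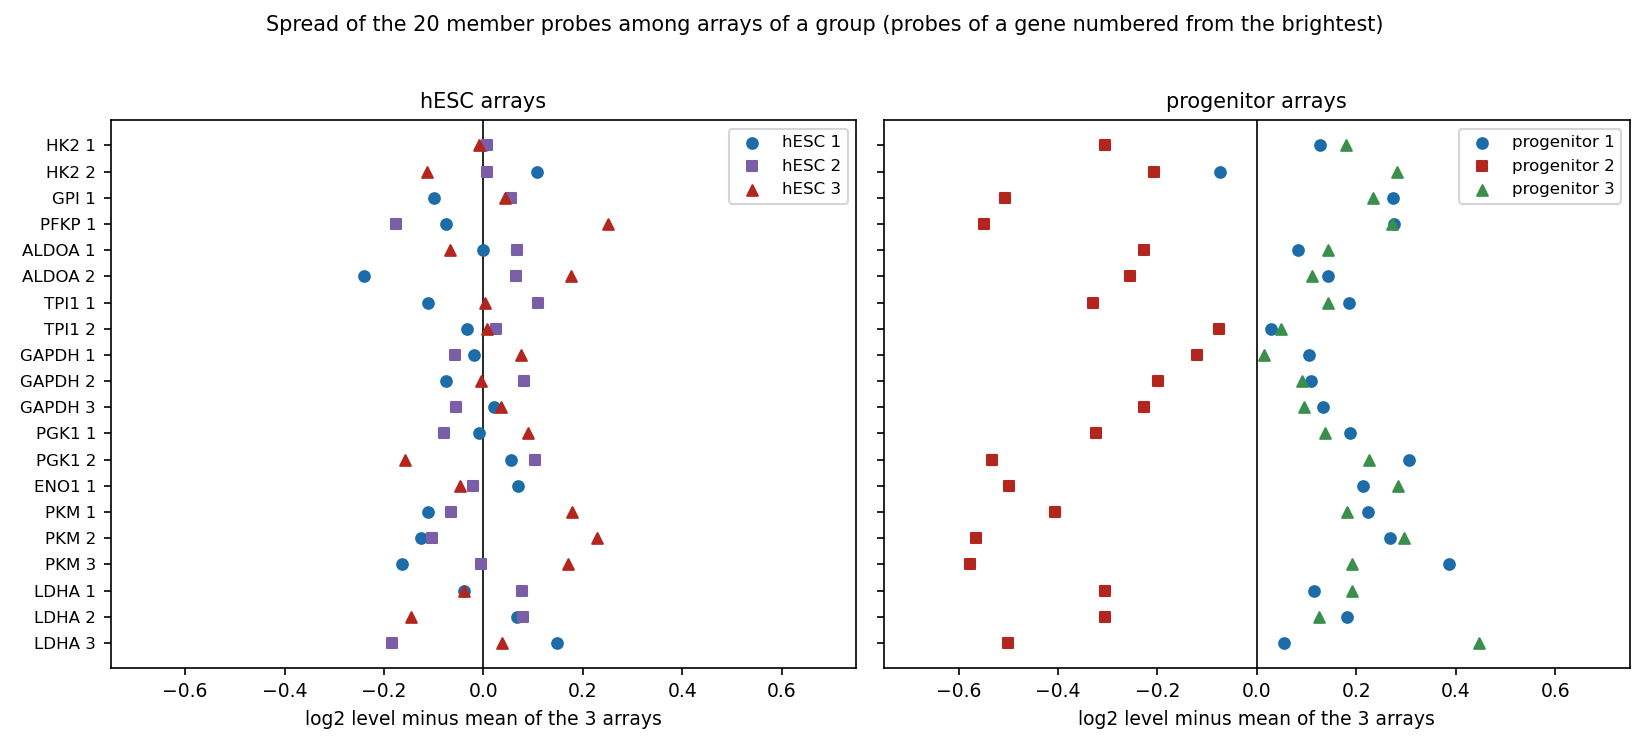
Log2 level of each of the 20 glycolytic probes on each hESC array (left) and progenitor array (right), minus the mean of the 3 arrays of that group. Probes of a gene are numbered from the brightest. The square for progenitor 2 is the leftmost in all 20 lines at right, while the order of the hESC arrays varies from probe to probe.

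On other gene lists progenitor 2 varied. It was the lowest progenitor array for 7 of 14 genes listed as other isozymes and mutases. The same held for 10 of 16 genes of the TCA cycle and 8 of 18 hypoxia-inducible genes outside glycolysis. The 4 splicing factors of PKM listed below were all lowest on it (median difference −0.43). It was also lowest for 9 of 12 reference genes (median −0.17), a list that includes GAPDH and PGK1 themselves. All 5 fibroblast markers were higher on progenitor 2 than on the mean of progenitors 1 and 3, by a median of 0.75 (0.36 to 1.03). So were both endothelial markers measured (of 7 listed), KDR by 1.51 and TEK by 0.84. All 3 epithelial markers were lowest on that array (median difference −0.20, −0.48 to −0.04). Of these, 2 had fallen against hESC and only 2 were detected on all progenitor arrays. Pericyte markers went both ways: progenitor 2 was lowest for 4 of 6 (median difference −0.02, −0.29 to 0.59). For the fibroblast markers the log2 of the summed linear levels was 11.5 to 12.4 in hESC and 11.99 to 12.03 in embryoid bodies. In progenitors this value was 16.8 to 17.5. DCN was not above background on any hESC array. The part of these cell markers in the glycolytic values was not tested, and in these bulk samples fewer cells of a type and less RNA per cell cannot be told apart.

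The same steps have further isozymes, which were listed together with phosphoglycerate mutases, whose step is not among those of the glycolytic genes above. Of 14 measured, 2 rose and 1 fell in embryoid bodies against hESC (1.5% and 1.58% of all genes), 0 rose and 2 fell in progenitors against hESC (14.7% and 19%), and 0 rose and 5 fell in progenitors against embryoid bodies (15.3% and 18.9%). Their median log2 differences were 0.02, −0.65 and −0.48, against −0.01, −0.07 and −0.08 for all genes. The 2 that rose in embryoid bodies were LDHD and PGAM2. The other 9 listed genes were not analysed here.

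ALDOC, the brain aldolase, fell from 11.40 ± 0.07 (SD, n = 3) in hESC to 10.33 ± 0.09 in embryoid bodies, a log2 difference of −1.07 (adjusted p = 0.000248, limma), and stood at 10.69 ± 0.03 in progenitors. LDHD, the mitochondrial D-lactate dehydrogenase, rose in embryoid bodies by 1.83 (adjusted p = 0.00146) and was not above background on any progenitor array, where it was at least 7.30-fold lower than in embryoid bodies and at least 2.06-fold lower than in hESC. The muscle mutase PGAM2 rose in embryoid bodies by 1.07 (adjusted p = 0.0047, but 0.88 without hESC 3) and was not above background in progenitors, at least 1.42-fold lower than in embryoid bodies. The neuronal enolase ENO2 fell from 11.49 ± 0.08 in embryoid bodies to 10.14 ± 0.09 in progenitors (−1.35, adjusted p = 7.41e-06). The muscle enolase ENO3 fell by 2.16 on the log2 scale there (adjusted p = 0.000189) and by 1.52 against hESC (0.00176), with progenitors at 8.05 ± 0.77. LDHC, the testis form, fell by 1.46 against embryoid bodies (0.00723). The calls of PGAM2 in both comparisons, LDHD against hESC in progenitors and LDHC did not hold without background correction or on the authors' values.

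The other genes of this list did not reach 2-fold. HK1 was lower in progenitors than in hESC by −0.66 (adjusted p = 0.00104, limma) and LDHB by −0.69 (0.000174). PFKL was higher by 0.46 (0.00569), ADPGK by 0.56 (0.00124) and BPGM by 0.55 (0.0134), while PFKM gave −0.01 (0.951). PGAM1, the main phosphoglycerate mutase, gave −0.80 (0.000634) and PGAM4 −0.75 (0.000636), but these are near-identical copies and their probes may read each other's transcript.

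Within each array the ratio of 2 isozymes is free of that array's overall scale, so 7 pairs were compared in 3 comparisons, a set of 21 chosen after the values were seen. The ratio of LDHA to LDHB differed by −0.43 (SE 0.059) on the log2 scale in embryoid bodies and by 0.76 (SE 0.12) in progenitors, both against hESC, with no overlap of arrays. That of ALDOA to ALDOC differed by 0.77 (SE 0.08) and 1.22 (SE 0.13), and that of HK2 to HK1 by −0.80 (SE 0.053) and −0.23 (SE 0.081), also without overlap. Each of these gave p = 0.1 in a two-sided exact permutation test (0.15 after Benjamini-Hochberg over the 21), the smallest p that 3 against 3 arrays allow, so no ratio could pass.

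Flux through phosphofructokinase is set by fructose 2,6-bisphosphate, which PFKFB enzymes make and break and TIGAR hydrolyses. Of 4 such genes measured, 2 fell in embryoid bodies against hESC and 0 rose (1.58% and 1.5% of all genes). PFKFB3, the form with the strongest kinase activity, fell from 11.61 ± 0.03 to 10.08 ± 0.09 (log2 difference −1.53, SE 0.11, adjusted p = 0.000113, limma), and PFKFB4 fell from 11.46 ± 0.31 to 10.02 ± 0.12 (−1.44, SE 0.15, 0.000671). These are larger differences than that of any of the 10 enzymes in that comparison, though the difference between them was not tested. The fall of PFKFB3 did not reach 2-fold when its probes were averaged.

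In progenitors against hESC, PFKFB4 fell by 1.02 on the log2 scale (adjusted p = 0.000276), which was −0.91 without hESC 1 and −0.95 without hESC 2, and PFKFB3 was lower by −0.64 (0.000745). Against embryoid bodies, TIGAR rose by 1.07 (5.19e-05), PFKFB2 fell by 1.39 (4.59e-05) and PFKFB3 was higher by 0.89 (8.01e-05). The progenitor calls of PFKFB4, TIGAR and PFKFB2 fell short of the call without background correction and on the authors' values.

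**Figure D4:**
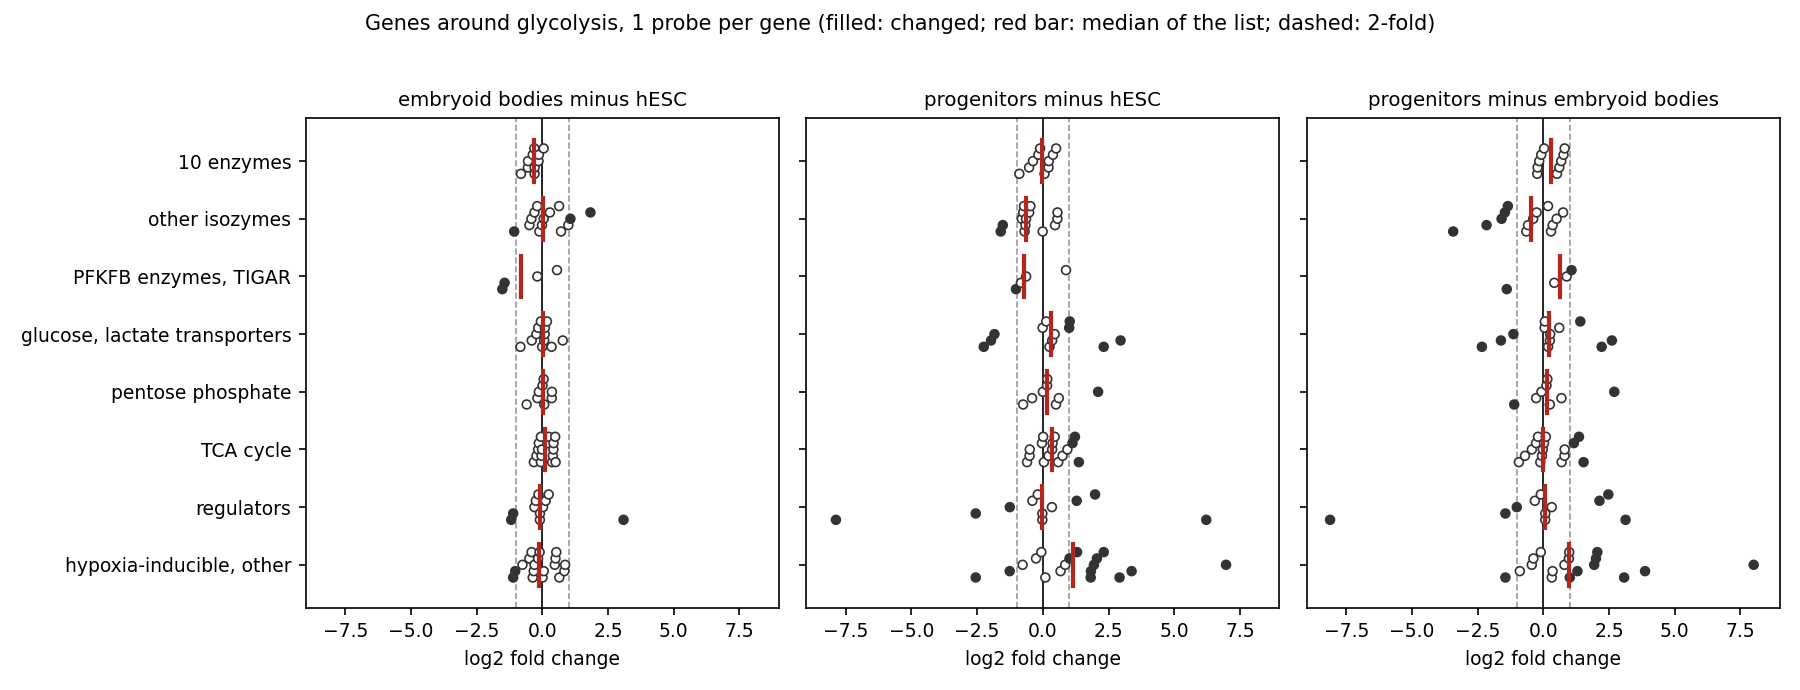
Log2 fold changes of genes around glycolysis in the 3 comparisons, 1 probe per gene, with the 10 enzymes in the top row. Filled points rose or fell (limma, adjusted p under 0.05 and at least 2-fold), red bars are list medians and dashed lines mark 2-fold. The 10 enzymes have no filled point in any panel. A fitted value of a gene not above background in 1 group understates its change.

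Glucose enters and lactate leaves through membrane carriers. Of 12 measured, 0 rose and 0 fell in embryoid bodies against hESC (3 at an unadjusted p under 0.05), while 4 rose and 3 fell in progenitors against hESC (14.7% and 19% of all genes), with 3 and 3 against embryoid bodies (15.3% and 18.9%). The glucose transporter SLC2A1 (GLUT1) read 12.79 ± 0.02 in hESC, 11.95 ± 0.09 in embryoid bodies and 10.81 ± 0.64 in progenitors. It fell in progenitors by 1.97 against hESC (adjusted p = 0.000121, limma) and by 1.14 against embryoid bodies (0.00373), the latter −0.77 without progenitor 2. SLC2A3 (GLUT3), the high-affinity neuronal form, fell by 1.84 against hESC (3.46e-06) and by 1.61 against embryoid bodies (8.14e-06). Its close copy SLC2A14 was at least 3.59-fold lower than in hESC, and the probes may read each other's transcript.

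SLC2A10 (GLUT10) rose from 9.05 ± 0.17 in hESC to 12.01 ± 0.48 in progenitors (log2 difference 2.96, adjusted p = 1.96e-06, limma) and SLC2A12 (GLUT12) from 6.98 ± 0.47 to 9.29 ± 0.50 (2.32, 5.97e-05). SLC2A6 (1.00) and the monocarboxylate carrier SLC16A7 (1.02) rose by little more than 2-fold. SLC2A6 fell short without hESC 3 (0.93), progenitor 2 (0.96) or progenitor 3 (0.98), and SLC16A7 without hESC 1 (0.89) or progenitor 3 (0.98). Neither call held without background correction, with median scaling or on the authors' values. BSG, the chaperone of lactate carriers, did not pass (0.35, 0.0566). The lactate carriers SLC16A1 and SLC16A3 and the insulin-sensitive SLC2A4 were not analysed here.

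Past pyruvate, 0 of 5 genes of the pyruvate dehydrogenase complex rose or fell in any of the 3 comparisons (3.08%, 33.7% and 34.2% of all genes). Its kinases, which switch it off, went both ways: PDK3 fell in progenitors by 1.19 against hESC (adjusted p = 0.0014, limma), which fell short of 2-fold when its probes were averaged, and PDK4 rose (0.00597), though not without background correction. PDK4 was not above background in hESC and read 7.004, 8.78 and 6.62 in progenitors, and its fitted difference of 1.86 was 1.20 without progenitor 2. PDK2, detected on 1 hESC array, was higher by 0.78 (0.00281), and PDK1 was not analysed here. Of 16 TCA cycle genes, 3 rose and 0 fell in progenitors against hESC, where 14.7% and 19% of all genes did. They were ACO1 (1.37), SUCLG2 (1.22) and SDHA (1.13, under 2-fold with median scaling). The list's median log2 difference was 0.36, and 0 of 16 rose or fell in embryoid bodies against hESC (3.08% of all genes).

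Among side routes, 1 of 8 pentose phosphate genes rose in progenitors against hESC, H6PD (2.10, adjusted p = 1.75e-05, limma), the enzyme of the endoplasmic reticulum. Of 10 genes of glycogen and galactose use, GBE1, the branching enzyme, rose (2.77, 1.31e-07) and UGP2, which makes UDP-glucose, fell by 1.86 on the log2 scale (2.44e-07). Of 4 gluconeogenic genes pyruvate carboxylase (PC) rose (2.20, 5.07e-07), and of 12 genes of serine, glycerol and hexosamine synthesis GPD1L rose (1.42, 0.000152) and SHMT1 fell by 1.49 on the log2 scale (3.34e-05). Over all genes 14.7% rose and 19% fell in progenitors against hESC. None of these 4 lists had a gene that rose or fell in embryoid bodies against hESC, where 3.08% of all genes did.

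Of 11 known regulators of these genes, 1 rose and 2 fell in embryoid bodies against hESC (1.5% and 1.58% of all genes), and 3 rose and 3 fell in progenitors against hESC (14.7% and 19%). HIF1A, a hypoxia-inducible factor, read 9.72 ± 0.21 in hESC, 9.57 ± 0.21 in embryoid bodies and 11.71 ± 0.13 in progenitors, a rise of 1.99 on the log2 scale against hESC (adjusted p = 2.64e-06, limma). EPAS1, its relative HIF2A, rose by 3.09 in embryoid bodies and by 6.22 in progenitors, both against hESC. MYCN read 13.10 ± 0.11 in hESC and 13.34 ± 0.05 in embryoid bodies and was not above background on any progenitor array, at least 130.4-fold lower than in hESC. MYC did not pass in any comparison (11.30 ± 0.46, 11.21 ± 0.03 and 11.28 ± 0.51).

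The oxygen sensors EGLN1 and EGLN3 mark hypoxia-inducible factors for destruction. EGLN1 fell in embryoid bodies by 1.19 on the log2 scale (adjusted p = 0.00402, but −0.99 without embryoid body 3) and rose by 1.29 in progenitors (0.000256), both against hESC. EGLN3 fell by 1.11 in embryoid bodies (0.00492, −0.92 without hESC 3) and was at least 3.79-fold lower in progenitors. The cofactor PPARGC1A fell in progenitors by 1.26 (0.00907). The calls of EGLN1 against hESC, EGLN3 in embryoid bodies and PPARGC1A did not hold without background correction or on the authors' values. EGLN2, VHL, HIF1AN and ESRRA did not reach 2-fold.

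Of 18 hypoxia-inducible genes outside glycolysis, 10 rose and 2 fell in progenitors against hESC (14.7% and 19% of all genes), with a median log2 difference of 1.16 where the 10 glycolytic genes had −0.02. Among those that rose were the collagen-processing genes LOX (6.97), P4HA2 (3.38) and PLOD2 (2.32) and the stress gene NDRG1 (2.92). The lowest fitted log2 difference of the list was −2.55. In embryoid bodies 0 of the 18 rose and 2 fell (1.5% and 1.58% of all genes). Those that fell were EGLN3, which both lists hold, and LOX. The call of LOX ended in 7 of 9 fits without 1 array (adjusted p up to 0.124, and −0.71 at 0.0818 without hESC 3). These lists were chosen with results of these data known, and the difference between the lists was not tested.

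The choice between the M1 and M2 forms of PKM is made by splicing factors. SRSF3 fell in progenitors by 1.30 against hESC (adjusted p = 0.00021, limma) and by 1.15 against embryoid bodies, −0.91 without progenitor 2. PTBP1 (−0.77, 6.05e-05), HNRNPA2B1 (−0.91, 0.000629) and HNRNPA1 (−0.50, 0.0116) were lower in progenitors than in hESC, each under 2-fold. The 2 PKM forms were not told apart here.

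GAPDH and PGK1 are often used as reference genes. Of the 12 reference genes measured, B2M rose in all 3 comparisons (1.45, 3.24 and 1.78) and SDHA in the last 2 (1.13 and 1.16), while the other 10 did not reach 2-fold. Between embryoid bodies and progenitors GAPDH differed by 0.77 on the log2 scale and ACTB by 0.50 (adjusted p = 0.00117), with YWHAZ at 0.12 (0.333) and GUSB at 0.10 (0.524).

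Likeness of pattern was measured next. For each of the 10 genes, the other 11990 genes were ordered by the root mean square difference of log2 levels, centred on their mean, over the 9 arrays. Another of the 10 was among the nearest 2 genes only for PFKP, where PKM was second at 0.11. The nearest genes were RBBP9 for HK2 (0.085), ETNK1 for GPI (0.067), CABYR for PFKP (0.094), CNN3 for ALDOA (0.051) and NEDD1 for TPI1 (0.049). For the other 5 they were FHOD1 for GAPDH (0.068), SLBP for PGK1 (0.054), SOWAHC for ENO1 (0.081), CNOT9 for PKM (0.046) and PPP2R5D for LDHA (0.081). The nearest of the 10 stood at rank 2 for PFKP (PKM), 13 for PKM (PFKP), 29 for LDHA (GAPDH), 49 for GAPDH (LDHA), 64 for ENO1 (TPI1) and 78 for GPI (PGK1). It stood at rank 113 for HK2 (ENO1), 123 for PGK1 (TPI1), 134 for TPI1 (PGK1) and 178 for ALDOA (GAPDH).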

How the data were processed

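Per the labels' protocols, total RNA was amplified to biotinylated cRNA. Per the submitters' processing notes, BeadStudio was used. The sources used here give neither its version nor a genome build. The authors deposited bead intensities, not background subtracted, and detection p-values for 47323 probes, and a table of log2 values for 20127 probes.

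The probe intensities went through limma 3.58.1 (R 4.3.3): neqc with negative controls inferred from the detection p-values, an offset of 16, quantile normalization and log2. Probes detected (p under 0.05) on at least 3 of 9 arrays were kept. Of these 15592 have 1 gene, 4 several and the rest none, and names came through Entrez identifiers (15585 of 15596 found). The fit was lmFit and eBayes, two-sided, tested on simulated data. A gene with a group below background got a bound from the lowest detected signal per array. The members and lists were chosen with earlier results of these data known. Genes outside the 10 were named by a rule: all tested genes of short lists, and up to 4 called genes per longer list and comparison with the largest change. Some counts at any fold, list robustness and the isozyme ratios were added after the data were seen. Array number limits the precision of every value. Arrays of 1 replicate number did not deviate together (r −0.10 to 0.07, other numbers −0.09 to 0.14), so numbers were not treated as pairs.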

Additional observations from a re-analysis of the deposited data

How the results depend on the processing

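The counts of glycolytic genes that rose or fell were 0 in each comparison and stayed 0 in all 9 fits without 1 array, with the replicate block, without background correction, on the authors' values, with no or a stricter detection filter and with averaged probes. With median scaling 1 fell in embryoid bodies and 1 in progenitors against hESC (HK2, −1.13 and −1.05) and 1 rose in progenitors against embryoid bodies (ALDOA, 1.03). With no fold threshold, 3 fell in the first comparison, 1 rose and 3 fell in the second and 5 rose between embryoid bodies and progenitors.

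At any fold, fits without 1 array called 2 to 6 lower in embryoid bodies against hESC, 1 to 5 higher and 1 to 3 lower in progenitors against hESC, and 3 to 6 higher in progenitors against embryoid bodies. The F-test called 4 to 8. Without hESC 3 and progenitor 2 together (an alternative chosen after seeing the data) these were 6 lower in the first comparison, 4 higher in the second and 8 by the F-test. Median scaling gave 5 lower in the first and 1 lower in the second. Without background correction, on the authors' values, with averaged probes and with an intensity trend and robust prior, 2 were higher in the second. Without a detection filter 1 was lower there. The F-test called 7 on the authors' values and with the trend, and 5 with the replicate block. Under that block 3 genes were lower at any fold in the first comparison. In the second 1 was higher and 2 were lower, and 5 were higher in progenitors against embryoid bodies. When the closest arrays (hESC 1 and 2, the 3 embryoid bodies, progenitors 1 and 3) were averaged, 0 passed in the first comparison and 0 between progenitors and embryoid bodies, 0 were higher and 1 (HK2) lower in the second, and the F-test called 1. Only 2 residual degrees of freedom remain there.

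Of 600 alternative values of single glycolytic genes, 582 kept their direction and the outcome of the 2-fold call, 3 passed that call and 15 changed sign. The adjusted p alone stayed on its side of 0.05 in 537, was lost in 40 and was gained in 23. For GPI these were −0.11, −0.09 and −0.10 in progenitors against embryoid bodies without progenitor 1, without progenitor 3 and with arrays averaged (−0.11 to 0.28 over all fits without 1 array), and 0.15 and 0.17 in progenitors against hESC without progenitor 2 and without both arrays (−0.24 to 0.15). HK2 turned to 0.0733 without progenitor 2 or both arrays (−0.17 to 0.0733 over fits without 1 array) and to 0.0849 with median scaling, and ENO1 to 0.0946 without progenitor 2 or both (−0.30 to 0.0946), in progenitors against embryoid bodies. PGK1 turned to 0.0352 against hESC without both arrays and to −0.19 and −0.18 in embryoid bodies with median scaling and averaged probes. LDHA in progenitors against hESC turned to −0.0316 without progenitor 3 (−0.0316 to 0.22 over fits without 1 array) and to −0.0027 with averaged arrays. The cause was not tested.

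Over all probes, 589, 6391 and 6478 changed as reported, 195, 4012 and 4111 without background correction, 194, 3535 and 3658 on the authors' values, 914 in the first comparison with median scaling and 0 with averaged arrays, and 3731, 13147 and 13091 with no fold threshold. Of 94 calls among the listed genes outside the 10, 81 held in all fits without 1 array and 58 in every setting.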
